A study of Rattus norvegicus with 24 samples.

Results

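Ogg1, Mgmt, Xpa, Xpc, Ercc1, Ercc4, Fancd2, Fanci and Fancg are 9 rat genes whose products repair or reverse chemical damage to DNA. They were picked by name, as genes of base excision, nucleotide excision and crosslink repair that bear on the lesions formaldehyde makes. The choice was made with earlier results of these data known. The platform's gene table named 6 of the 9, each through 1 probe set, among 14506 gene symbols and 29214 probe sets in all. Ercc4, Fanci and Fancg are not listed there by symbol, gene identifier or accession and were not analysed here. All 6 matched genes passed the filter on dim probe sets in both tissues. The lowest against that filter was Fancd2 in the nose, whose mean lay at percentile 32.1 of the nasal probe sets with the filter at percentile 25.

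Formaldehyde is a small reactive aldehyde that links proteins to DNA and can also leave adducts on single bases and links between strands. Base excision repair starts with a glycosylase that cuts out one damaged base, while nucleotide excision repair recognises a distorted helix and removes a short stretch of the strand around it. The Fanconi anaemia pathway unhooks links between strands during replication, and inhaled formaldehyde meets the lining of the front of the nose before it can reach any other tissue.

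The animals were male Fischer rats, approximately 8 weeks old at the start. Exposed rats breathed 2 ppm formaldehyde through the nose only, 6 hours a day, for 7 or 28 days, from vaporised isotope-labelled paraformaldehyde, and controls sat in the same kind of tube with room air, so all groups shared the restraint. RNA was taken from the lining of the maxilloturbinate, a scroll of bone in the front of the nasal cavity, and from white blood cells separated from whole blood. The 2 tissues, 2 durations and 2 exposures gave 8 groups of 3 arrays, 24 Affymetrix arrays in all. The labels number the replicates but do not say that each is 1 rat, so p-values measure the spread between these arrays.

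Levels are log2 of the deposited normalized intensity, and a difference of 1 on that scale is a change of 2 times. A gene is said to have risen or fallen where limma's two-sided test gave an adjusted p under 0.05 (Benjamini-Hochberg, over every probe set tested). The 7-day control arrays lay above the 28-day ones, by 0.88 between the means of their array medians in the nose and by 0.59 in blood, so levels are compared within a day only. Both tissues are mixtures of cells, and fewer cells of a type cannot be told apart from less RNA per cell. The ciliated cell markers had list means from 8.11 to 9.56 on nasal arrays against 5.69 to 6.36 on blood arrays, and the T cell markers from 6.70 to 7.91 in the nose against 10.27 to 11.58 in blood. The blood arrays also carried red cell markers, with list means from 11.32 to 13.04, and platelet markers, from 11.88 to 13.01. Markers of olfactory neurons separated replicate 1 of the nasal controls from its group on each day. At 7 days their list mean was 8.77 on that array, 10.16 and 9.94 on the other two, and 11.35 to 11.74 on the 3 exposed arrays. Without that array the nasal fit at 7 days called 846 probe sets in place of 3564 and still 0 members, with Xpa at 0.37 (adjusted p = 0.267), Mgmt at −0.10 (0.626) and Ogg1 at −0.005 (0.988). At 28 days the list mean was 7.28 on replicate 1 of the 28-day controls, 9.77 and 9.50 on the other two, and 9.79 to 10.19 on the 3 exposed arrays.

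Ogg1 was the 1 gene of the 6 that moved with formaldehyde past the threshold, and it did so in blood after 7 days, where it rose 1.55-fold. In blood at 7 days 1 of 6 members was called, against 0.475% of all 21910 probe sets, and 2 of 6 (Ogg1 and Xpa) had an unadjusted p under 0.05, against 15.1%. Because the members were chosen with earlier results of these data known, these shares are a description only. The median difference over the 6 was 0.14, against 0.04 over all probe sets tested. Exposed and control arrays did not overlap for 3 of the 6 there (Ogg1, Mgmt and Xpa), against 29.9% of all probe sets.

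No member passed the threshold in the other 3 comparisons of exposed with control rats. In nasal tissue at 7 days 0 of 6 were called by limma, against 16.3% of all probe sets, and 1 of 6 (Xpa) had an unadjusted p under 0.05, against 30.4%. After 28 days the nose again had 0 of 6 called, against 0.00456%, and 2 of 6 (Ogg1 and Ercc1) had an unadjusted p under 0.05, against 15.4%. In blood at 28 days 0 of 6 were called, against 5.27%, and 2 of 6 (Xpc and Fancd2) had an unadjusted p under 0.05, against 17.9%. The median differences of the 6 in those 3 comparisons were −0.05, −0.07 and −0.04, with medians over all probe sets of −0.05, 0.01 and −0.02. Groups did not overlap for 2 of the 6 in each of the 3, against 53.3%, 16.2% and 17.8% of all probe sets. The counts of a comparison come from the same 6 genes, and whether they differ from the shares over all probe sets was not tested.

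**Figure D1:**
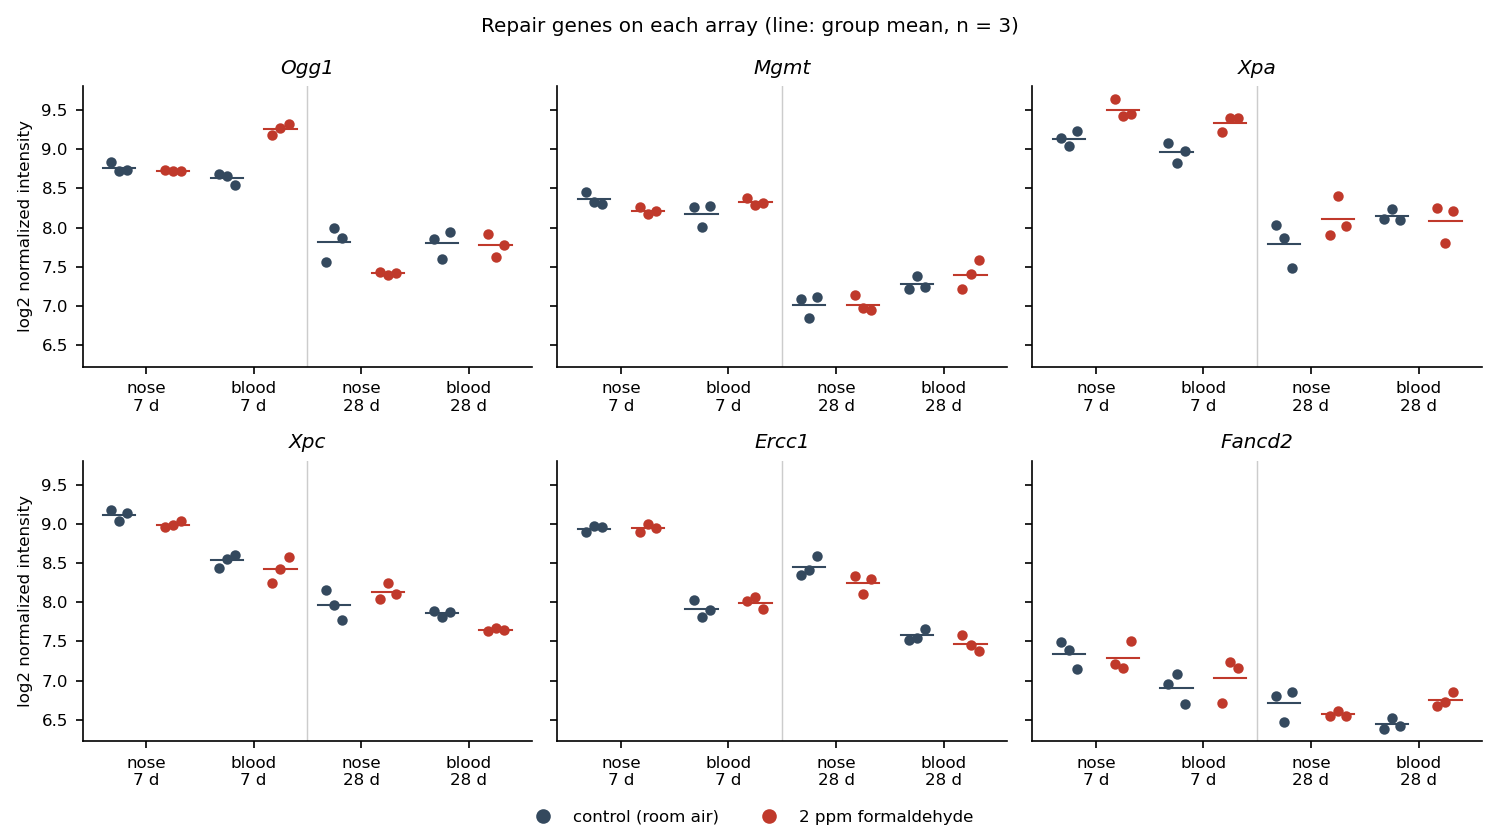
Log2 normalized intensity (vertical axis) of the 6 repair genes on each of the 24 arrays, by tissue and day (horizontal axis), with control arrays in dark blue, exposed arrays in red and a line at each group mean of 3 arrays. On the deposited scale the exposed 7-day blood arrays of Ogg1, at 9.18 to 9.32, stand above all other Ogg1 groups. Within each tissue every gene is lower at 28 days, where the arrays lie on a lower scale.

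**Figure D2:**
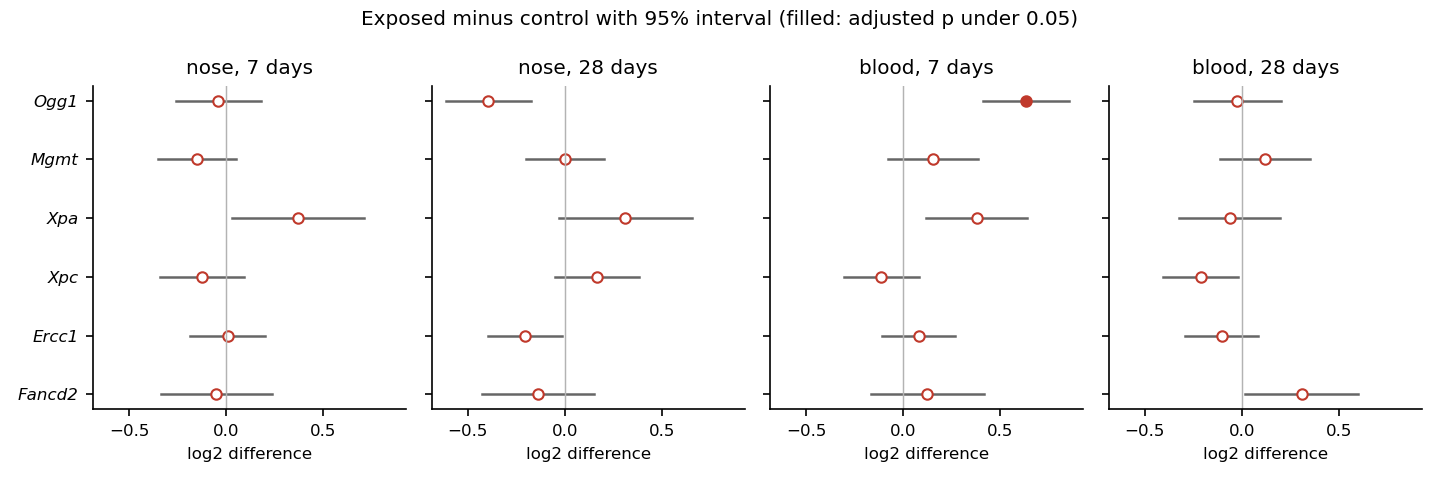
Difference in log2 intensity between exposed and control arrays (horizontal axis) for the 6 repair genes in each tissue and day, with the 95% confidence interval of the fit as a bar and filled points where the adjusted p is under 0.05. The 1 filled point is Ogg1 in blood at 7 days, at 0.63.

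Ogg1 encodes the glycosylase that removes oxidised guanine, the first step of base excision repair at that lesion. The gene lies on chromosome 4 (gene identifier 81528, probe set 10857752). Its RefSeq promoter is shown because Ogg1 is the member that rose, as the 250 bases before the annotated start on the plus strand of GRCr8, chr4:148030336-148030585, with the capitals marking the Sp1 letters GGGCGG.
Ogg1: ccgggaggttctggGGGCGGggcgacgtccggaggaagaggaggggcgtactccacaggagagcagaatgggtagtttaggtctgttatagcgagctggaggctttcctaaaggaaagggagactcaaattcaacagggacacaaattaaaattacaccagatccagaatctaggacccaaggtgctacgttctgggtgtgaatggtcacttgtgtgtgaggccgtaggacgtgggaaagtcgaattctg
Both strands were searched for 5 motifs: the E2F site (with the letters TTCCCGC, or else TTGGCGC, or else TTCGCGC), the Sp1 site (letters GGGCGG), the NRF1 consensus, the NF-Y site (letters CCAAT) and the CHR element (letters TTTGAA). Ogg1 held 1 match, the Sp1 letters starting at −236, which 30.5% of all 33469 RefSeq promoter windows of this length also hold. A match is a description of the letters and no evidence of binding.

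On the control blood arrays at 7 days Ogg1 read 8.68, 8.67 and 8.54, and on the exposed ones 9.18, 9.28 and 9.32. Every exposed array was above every control array, and the arrays within each group lay close together. The difference was 0.63 ± 0.10 (SE, n = 3 against 3), with a 95% interval from 0.41 to 0.85 and a limma adjusted p of 0.0313. The direction held in all 6 fits that left out 1 array, with differences from 0.59 to 0.67. The call held without control replicate 1 (adjusted p = 0.0466), and was lost without control replicate 2 (0.146), control replicate 3 (0.0892) or exposed replicate 1, 2 or 3 (0.14, 0.106 and 0.126). Over all probe sets the same fits called 2 to 5 where the call was lost and 115 where it held, against 104 with all arrays.

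In blood at 28 days the control arrays of Ogg1 read 7.85, 7.60 and 7.94 and the exposed ones 7.91, 7.63 and 7.78, so the groups lay over each other. The difference was −0.02 ± 0.10, with an interval from −0.25 to 0.20 and an adjusted p of 0.954. The exposure effect at 28 days minus that at 7 days was −0.65 ± 0.15 in blood, at an adjusted p of 0.123, so a difference between the days did not pass the threshold. In that comparison limma called 0 of 21910 probe sets (0%), with 2528 at an unadjusted p under 0.05. Fitted on all 24 arrays the same Ogg1 value had an adjusted p of 0.0381. Averaged over both days, Ogg1 rose in blood by 0.30 ± 0.07 (adjusted p = 0.0277), 1 of 6 members against 7.01% of all probe sets. This average lost its call in 7 of 12 fits without 1 array, with adjusted p up to 0.0716: those without 7-day control replicate 2 or 3, any 7-day exposed array, or 28-day exposed replicate 1 or 3.

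Nasal Ogg1 at 7 days read 8.84, 8.73 and 8.73 in controls and 8.73, 8.72 and 8.72 in exposed rats. The exposed arrays sat at the level of the lower control arrays, and the difference was −0.04 ± 0.10 (adjusted p = 0.837). At 28 days the nasal controls read 7.57, 8.00 and 7.87 and the exposed arrays 7.44, 7.39 and 7.42. All 3 exposed arrays were below the lowest control, which was replicate 1. The difference was −0.39 ± 0.10, with an unadjusted p of 0.00223 and an adjusted p of 0.129. Without control replicate 1, the 28-day array set apart by its olfactory markers, it was −0.52 and passed the threshold (adjusted p = 0.00801), in a fit that called 1081 probe sets where the fit with all arrays called 1. In the other 5 fits without 1 array it did not pass, with adjusted p up to 0.336. The average over both days in the nose was −0.22 ± 0.07 (adjusted p = 0.055), where 0 of 6 members were called against 17.1% of all probe sets. Without 28-day control replicate 1 it was −0.28 (adjusted p = 0.007), and in the other 11 fits it did not pass (adjusted p up to 0.133).

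The effect of formaldehyde on Ogg1 differed between the tissues at 7 days. The nasal effect minus the blood effect was −0.67 ± 0.14 at a limma adjusted p of 0.00678, and 1 of 6 members was called there, against 10.8% of 20096 probe sets. This held in all 12 fits that left out 1 array, with differences from −0.71 to −0.63 and adjusted p up to 0.0249. At 28 days the nasal effect minus the blood effect was −0.37 ± 0.14 (adjusted p = 0.139), and 0 of 6 members were called, against 5.1% of probe sets. Without nasal control replicate 1 that value was −0.49 and passed the threshold (adjusted p = 0.0185), and in the other 11 fits it did not (up to 0.275). Within the nose the effect at 28 days minus that at 7 days was −0.35 ± 0.14 (adjusted p = 0.337), with 0 of 6 members called against 0.1% of probe sets. It was −0.48 without 28-day control replicate 1 (adjusted p = 0.0218), and the other 11 fits did not pass (up to 0.66). Among the 4 groups of 7-day arrays, on the deposited scale, Ogg1 in exposed blood (mean 9.26, SD 0.07) lay above unexposed nose (8.76, SD 0.06), exposed nose (8.72, SD 0.01) and unexposed blood (8.63, SD 0.08). The order across tissues depends on that scale, where array medians of nasal controls lay 0.81 above those of blood controls. With each array centred on its median, Ogg1 in unexposed nose minus unexposed blood was −0.68.

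Among the lists of blood cell markers, 1 marker in all was called on the arrays on which Ogg1 rose, where 0.475% of all probe sets were. The NK and red cell list means did not overlap between the groups there, and neither did 29.9% of all single probe sets. List means of nasal cell types separated these blood arrays too. The ciliated list ran from 6.22 to 6.31 in controls and from 6.32 to 6.36 in exposed rats. The basal and squamous list ran from 7.88 to 7.91 and from 7.92 to 7.96. For NK cells all 7 listed markers had a probe set, the list mean ran from 11.04 to 11.32 in 7-day controls and from 11.69 to 11.82 in exposed rats, and 1 of 7, the granule protease gene Gzmb, rose (0.70, adjusted p = 0.0465). The red cell list had 6 of 8 genes with a probe set and a list mean from 12.65 to 13.04 in controls against 12.04 to 12.36 in exposed rats, with 0 of 6 called. The neutrophil list mean ran from 7.97 to 9.09 in controls and from 7.30 to 8.21 in exposed rats, which overlap, with 0 of 8 called. At 28 days, where Ogg1 showed no difference past the threshold, the NK list mean ran from 10.41 to 10.65 in controls and from 10.96 to 11.44 in exposed rats, with 5 of 7 called higher. The part of these cell markers in the Ogg1 result was not tested. Camk1, which overlaps Ogg1 in GRCr8, differed by 0.06 in blood at 7 days (adjusted p = 0.83).

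**Figure D3:**
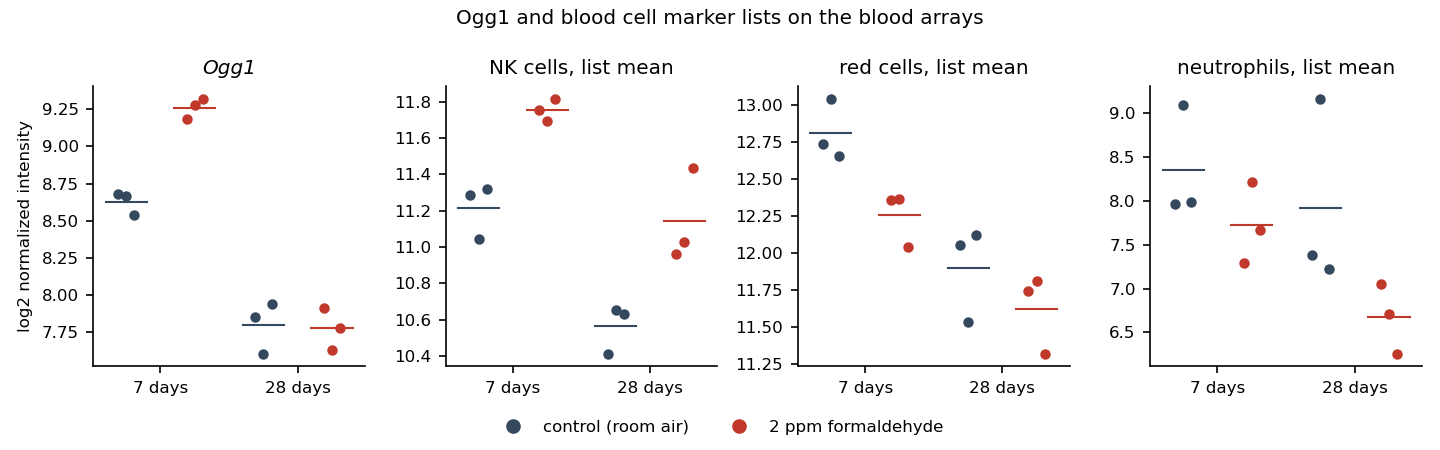
Log2 normalized intensity (vertical axis) on the blood arrays at 7 and 28 days (horizontal axis) of Ogg1 and of the mean over the NK cell, red cell and neutrophil marker lists, with 1 point per array, control in dark blue, exposed in red and a line at each group mean. At 7 days the NK list mean (11.69 to 11.82 against 11.04 to 11.32) and the red cell list mean (12.04 to 12.36 against 12.65 to 13.04) separate the same arrays as Ogg1. The list means of ciliated and of basal and squamous cells, not drawn, separate them too. At 28 days the groups do not overlap in the NK list mean and overlap in Ogg1. The part of these markers in the Ogg1 values was not tested.

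Mgmt encodes the methyltransferase that takes alkyl groups off guanine in a single step and is used up in doing so (chromosome 1, gene identifier 25332, probe set 10711875). It differed by 0.15 or less in every tissue and day. In the nose at 7 days its controls read 8.46, 8.33 and 8.31 and the exposed arrays 8.27, 8.17 and 8.21. The 3 exposed arrays lay just below the controls, by −0.15 ± 0.09 (adjusted p = 0.312), and with array quality weights the difference passed the threshold (−0.14, adjusted p = 0.043). The estimation of those weights stopped before convergence in the nose. Other settings gave adjusted p up to 0.435, and no fit without 1 array passed the threshold (up to 0.626). In blood at 7 days the controls read 8.26, 8.00 and 8.27 and the exposed arrays 8.38, 8.29 and 8.32. Here the exposed arrays lay just above, by 0.15 ± 0.11 (adjusted p = 0.547), and the intervals of both differences, from −0.35 to 0.05 and from −0.08 to 0.38, include 0. The nasal effect minus the blood effect at 7 days was −0.30 ± 0.14 (adjusted p = 0.176).

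At 28 days the nasal controls of Mgmt read 7.09, 6.85 and 7.12 and the exposed arrays 7.14, 6.97 and 6.94, with a mean difference of −0.0004 whose interval ran from −0.20 to 0.20. In blood at 28 days controls read 7.21, 7.39 and 7.24 and exposed arrays 7.21, 7.41 and 7.59. The groups shared their lowest value and the difference was 0.12 ± 0.11 (adjusted p = 0.661).

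Xpc encodes the protein that detects helix distortions and starts nucleotide excision repair over the genome as a whole (chromosome 4, gene identifier 312560, probe set 10864104). None of its exposure differences passed the threshold. The most separated was in blood at 28 days, where controls read 7.89, 7.81 and 7.88 and exposed arrays 7.63, 7.67 and 7.64. All 3 exposed arrays were below all 3 controls, by −0.21 ± 0.09 with an interval from −0.41 to −0.02 and an adjusted p of 0.227. In blood at 7 days the arrays overlapped, with controls at 8.44, 8.56 and 8.61, exposed arrays at 8.25, 8.43 and 8.58 and a difference of −0.12 ± 0.09 (adjusted p = 0.59).

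In the nose Xpc differed by −0.13 ± 0.10 at 7 days (adjusted p = 0.445), with controls at 9.18, 9.04 and 9.14 and exposed arrays at 8.96, 8.98 and 9.04. Later, at 28 days, the nasal difference was 0.17 ± 0.10 (adjusted p = 0.437), with controls spread from 7.78 to 8.15 and exposed arrays from 8.04 to 8.24. The highest of those controls was replicate 1. The nasal effect minus the blood effect at 28 days was 0.38 ± 0.13 (adjusted p = 0.0975), and without that array it was 0.47 (adjusted p = 0.0194). The other 11 fits without 1 array did not pass the threshold (adjusted p up to 0.21).

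Xpa encodes the scaffold protein that holds the open repair bubble together and brings in the nuclease that cuts beside the lesion (chromosome 5, gene identifier 298074, probe set 10876567). In the nose at 7 days its controls read 9.14, 9.04 and 9.23 and the exposed arrays 9.65, 9.43 and 9.45. In blood at 7 days the controls read 9.08, 8.83 and 8.97 and the exposed arrays 9.22, 9.40 and 9.40. In both tissues every exposed array was above every control array. The difference was 0.37 ± 0.15 in the nose (adjusted p = 0.132) and 0.38 ± 0.12 in blood (adjusted p = 0.158), so neither passed the threshold over all probe sets. The nasal difference passed it when only the 6 arrays compared were fitted (adjusted p = 0.0251), and both did with array quality weights (0.29 with adjusted p = 0.0229 in the nose and 0.35 with 0.0249 in blood). The estimation of those weights stopped before convergence in the nose. Other settings gave adjusted p up to 0.181 in the nose and 0.3 in blood. No fit without 1 array passed the threshold, with adjusted p up to 0.403 in the nose and 0.562 in blood.

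At 28 days the Xpa groups overlapped in both tissues. Nasal controls read 8.03, 7.87 and 7.49 and exposed arrays 7.90, 8.40 and 8.02, a difference of 0.31 ± 0.15 (adjusted p = 0.359). Blood controls read 8.11, 8.24 and 8.10 and exposed arrays 8.25, 7.80 and 8.21, a difference of −0.06 ± 0.12 (adjusted p = 0.877). The lone low exposed blood array was replicate 2. Averaged over both days the nasal difference was 0.34 ± 0.11 (adjusted p = 0.0543), and it passed the threshold without 28-day control replicate 1 (0.40, adjusted p = 0.028) or without 28-day exposed replicate 1 (0.39, adjusted p = 0.0488). The other 10 fits without 1 array did not pass it (adjusted p up to 0.135). Nasal markers differed as well at 7 days: the olfactory neuron list mean ran from 8.77 to 10.16 in controls and from 11.35 to 11.74 in exposed rats, with 5 of 11 tested markers called higher. The endothelial list mean ran from 9.42 to 9.75 in controls and from 8.59 to 8.98 in exposed rats, with 8 of 9 called lower. Also called lower were 5 of 7 monocyte and macrophage, 3 of 8 T cell, 2 of 4 B and plasma cell, 3 of 5 red cell, 1 of 4 NK cell and 1 of 5 basal and squamous cell markers, and called higher were 3 of 7 ciliated cell and 1 of 4 platelet markers. Their part in the Xpa values was not tested. Ncbp1, which overlaps Xpa in GRCr8, differed by 0.18 in the nose (adjusted p = 0.217) and by 0.17 in blood (adjusted p = 0.532) at 7 days.

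Ercc1 forms, with the product of Ercc4, the nuclease that cuts the damaged strand in nucleotide excision repair and also acts on links between strands (chromosome 1, gene identifier 292673, probe set 10704808). Its promoter is printed because Ercc1 is the member that was higher in unexposed nose than in unexposed blood under each scaling tried. The 250 bases before the start lie on the plus strand of GRCr8 at chr1:88124491-88124740, and the capitals mark the Sp1 letters on the opposite strand and then the E2F letters on the opposite strand.
Ercc1: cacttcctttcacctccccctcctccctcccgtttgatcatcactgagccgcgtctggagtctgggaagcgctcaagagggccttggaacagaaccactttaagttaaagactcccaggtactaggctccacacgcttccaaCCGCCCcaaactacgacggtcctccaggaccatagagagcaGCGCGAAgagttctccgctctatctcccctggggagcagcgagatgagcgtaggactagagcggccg
The Sp1 match starts at −108 and the E2F match at −67, and they do not overlap. E2F letters are present in 6.04% of all promoter windows.

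Exposed and control arrays of Ercc1 overlapped in both tissues at 7 days. Nasal controls read 8.894, 8.976 and 8.957 and exposed arrays 8.896, 8.998 and 8.955, with a difference of 0.01 ± 0.09 and an interval from −0.19 to 0.20. Blood controls read 8.03, 7.82 and 7.90 and exposed arrays 8.01, 8.06 and 7.91, with a difference of 0.08 ± 0.09 (adjusted p = 0.729). At 28 days the nasal controls read 8.35, 8.41 and 8.59 and the exposed arrays 8.34, 8.10 and 8.30. The exposed arrays were all below the controls, the nearest pair only just, and the difference of −0.21 ± 0.09 did not pass the threshold (adjusted p = 0.293). Blood at 28 days gave controls of 7.52, 7.54 and 7.66, exposed arrays of 7.58, 7.45 and 7.38, and a difference of −0.10 ± 0.09 (adjusted p = 0.63).

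Fancd2 encodes the protein that, in a complex with the Fanci product, receives a single ubiquitin at blocked replication forks and calls in the nucleases that unhook the link (chromosome 4, gene identifier 312641, probe set 10857838). The Fancg product belongs to the core complex that attaches the ubiquitin. In blood at 28 days the Fancd2 controls read 6.39, 6.53 and 6.42 and the exposed arrays 6.68, 6.73 and 6.85. All exposed arrays were higher, by 0.31 ± 0.13 with an interval from 0.02 to 0.60, and the difference did not pass the threshold (adjusted p = 0.249). In blood at 7 days the arrays overlapped, with controls at 6.95, 7.08 and 6.70, exposed arrays at 6.71, 7.23 and 7.16 and a difference of 0.12 ± 0.13 (adjusted p = 0.732).

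Nasal Fancd2 at 7 days read 7.49, 7.39 and 7.15 in controls and 7.21, 7.16 and 7.51 in exposed rats, a difference of −0.05 ± 0.13 (adjusted p = 0.848). Nasal controls at 28 days read 6.80, 6.48 and 6.86 and the exposed arrays 6.55, 6.62 and 6.55, a difference of −0.14 ± 0.13 (adjusted p = 0.639). These last values lie on both sides of 6.61, the level of the nasal filter on dim probe sets. The nasal effect minus the blood effect at 28 days was −0.45 ± 0.19 (adjusted p = 0.184). Top2a, a topoisomerase gene of dividing cells, did not pass the threshold in any of the 4 comparisons, with differences of 0.21 and −0.34 in the nose and 0.50 and 0.21 in blood at 7 and 28 days. The proliferation list, of which 28 of 33 genes had a probe set, had median differences of 0.01 and −0.13 in the nose and 0.10 and −0.03 in blood.

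Over the 24 arrays, with the mean of each tissue and day subtracted, the named genes whose values followed Fancd2 most closely were Atad2 (r = 0.79), Nusap1 (r = 0.75) and Rad18 (r = 0.75). Nusap1 encodes a protein of the mitotic spindle and Rad18 a ubiquitin ligase of damage tolerance. The same search over 11795 probe sets gave Rpl36a (r = 0.90), Thumpd3 (r = 0.88) and Nob1 (r = 0.87) for Ogg1. For Xpc it gave Abl1 (r = 0.87), Slc4a2 (r = 0.87) and Cc2d1b (r = 0.86), and for Mgmt Rab12 (r = 0.85), Nqo2 (r = 0.75) and Pdia3 (r = 0.74). These are descriptions over arrays that share their exposure groups and their normalization. The Fancd2 promoter is shown beside these partners because they include genes of dividing cells. It covers the 250 bases before the start on the plus strand of GRCr8, chr4:148234458-148234707, with the Sp1 letters on the opposite strand in capitals, starting at −154.
Fancd2: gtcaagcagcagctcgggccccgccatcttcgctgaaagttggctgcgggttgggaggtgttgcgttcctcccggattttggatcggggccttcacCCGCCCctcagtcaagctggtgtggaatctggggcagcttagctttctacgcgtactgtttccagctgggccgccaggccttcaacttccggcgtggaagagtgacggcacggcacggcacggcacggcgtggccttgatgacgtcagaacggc
Neither the E2F nor the CHR letters, the latter present in 16.2% of all promoter windows, are in this window.

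Among the members without a printed window, Mgmt held 2 Sp1 matches, at −55 and −38. Xpc held an E2F match at −102, Sp1 matches at −78 and −10 and a CHR match at −198. NRF1 letters, in 0.762% of all windows, were in none of the member windows, and NF-Y letters, in 34% of all windows, were in none of the windows of Ogg1, Mgmt, Xpc, Ercc1 and Fancd2.

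Without exposure, Ercc1 was higher in the nose than in blood on both days. On the deposited scale, at 7 days unexposed nose minus unexposed blood was 1.03 ± 0.09 for Ercc1 (limma adjusted p = 6.18e-10), 0.58 ± 0.09 for Xpc (adjusted p = 9.13e-06) and 0.43 ± 0.14 for Fancd2 (adjusted p = 0.00734). These 3 of 6 members were called against 74.7% of 20096 probe sets, and 5 of 6 did not overlap against 82.7%. At 28 days Ercc1 was again higher in the nose, by 0.87 ± 0.09 (adjusted p = 1.09e-08), while Mgmt (−0.26 ± 0.10, adjusted p = 0.0241) and Xpa (−0.35 ± 0.14, adjusted p = 0.0303) were lower there. Again 3 of 6 were called, against 71.3% of probe sets, and 3 of 6 did not overlap against 64.9%. The Mgmt call at 28 days was lost without nasal control replicate 2 (−0.18, adjusted p = 0.144) or blood control replicate 2 (−0.21, adjusted p = 0.102). The Xpa call was lost without nasal control replicate 3 (−0.20, adjusted p = 0.21) or blood control replicate 2 (−0.31, adjusted p = 0.0909), and the 7-day Fancd2 call without blood control replicate 3 (0.33, adjusted p = 0.0528).

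The sign of the difference between tissues turned with the scaling for Ogg1, Mgmt, Xpa, Xpc and Fancd2 at 7 days and for Ogg1, Xpc and Fancd2 at 28 days. The array medians of nasal controls lay above those of blood controls by 0.81 at 7 days and 0.52 at 28 days. With each array centred on its median, Ercc1 was still higher in the nose, by 0.21 at 7 days (adjusted p = 0.0312) and 0.35 at 28 days (adjusted p = 0.00112). Under that scaling the other 5 had values below 0 on both days: at 7 days −0.68 for Ogg1, −0.63 for Mgmt, −0.64 for Xpa, −0.23 for Xpc and −0.38 for Fancd2. Mgmt and Xpa at 28 days were below 0 on the deposited scale, with quantile normalization (−0.21 and −0.27, adjusted p = 0.0695 and 0.0854) and with centring (−0.79 and −0.88, adjusted p = 4.96e-07 and 2e-05). The median difference of all probe sets on the deposited scale was 0.41 at 7 days and 0.20 at 28 days. For Ogg1 on the deposited scale the tissues did not differ past the threshold on either day (0.14 and 0.01, adjusted p = 0.231 and 0.903).

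The other genes of these pathways were followed through 81 listed genes, 58 of them with a probe set, of which 55 were tested in the nose and 57 in blood. Among them 1 of 55 was called in the nose at 7 days, against 16.3% of all probe sets. This was Fancc, a subunit of the Fanconi core complex, which fell by 0.28 ± 0.08 (adjusted p = 0.0332), with controls at 7.93, 7.93 and 7.90 and exposed arrays at 7.50, 7.74 and 7.68. That call was lost in 5 of 6 fits without 1 array (all but exposed replicate 2), with adjusted p up to 0.154. It was also lost with quantile normalization (adjusted p = 0.101) and with the replicate number as a block (0.0752). Limma called 0 of 55 in the nose at 28 days, against 0.00456% of all probe sets, and 0 of 57 in blood at 7 days, against 0.475%. Sprtn, the protease that digests proteins crosslinked to DNA, did not pass the threshold anywhere. Its differences were −0.07 ± 0.11 and 0.20 ± 0.11 in the nose and −0.005 ± 0.12 and −0.13 ± 0.12 in blood, at 7 and 28 days.

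In blood at 28 days 3 of 57 were called, all higher, against 5.27% of all probe sets. Rad18 rose by 0.43 ± 0.10 (adjusted p = 0.0301), from 7.39, 7.58 and 7.67 in controls to 7.87, 7.91 and 8.16. Cetn2, a centrin that binds the Xpc product, rose by 0.40 ± 0.09 (adjusted p = 0.0311), from 8.62, 8.57 and 8.81 to 8.97, 9.14 and 9.09. Rpa2, a subunit of the protein that coats single-stranded DNA, rose by 0.50 ± 0.13 (adjusted p = 0.0481), from 8.66, 8.32 and 8.54 to 8.88, 9.28 and 8.87. In all 3 genes every exposed array was above every control array, where 17.8% of all probe sets did not overlap. They were named because they were called on these same arrays, so that separation adds no support. These calls were lost in 4, 4 and 5 of 6 fits without 1 array, respectively. For Rad18 and Cetn2 these were the fits without control replicate 1 or 2 or exposed replicate 2 or 3, and for Rpa2 all but the one without exposed replicate 1. The highest adjusted p in them were 0.0978, 0.095 and 0.155. On the same arrays 5 of 7 NK cell markers were called higher. So were 2 of 4 platelet markers, with list means from 11.88 to 12.25 in controls and from 12.42 to 12.66 in exposed rats. Of the monocyte and macrophage markers 1 of 8 was called lower, with list means from 8.65 to 9.29 in controls and from 8.24 to 8.62 in exposed rats. The neutrophil list mean ran from 7.22 to 9.17 in controls and from 6.26 to 7.05 in exposed rats, with 0 of 8 called. The part of these markers in the 3 results was not tested.

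By pathway, the medians of the other base excision genes were −0.02 and −0.0009 in the nose and −0.02 and −0.09 in blood at 7 and 28 days, over 15 and 16 tested genes. Those of the other nucleotide excision genes were −0.009 and 0.03 in the nose and 0.07 and −0.01 in blood, over 14 genes. The other Fanconi and crosslink genes had medians of −0.007 and −0.05 in the nose, over 21 genes, and 0.13 and 0.005 in blood, over 22. The direct reversal and adduct removal genes had medians of −0.17 and −0.04 in the nose and −0.005 and −0.13 in blood, over 5 genes. All of these medians lay within 0.1 of the median over all probe sets except those of the direct reversal and adduct removal genes in the nose at 7 days and in blood at 28 days.

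Averaged over both days, 5 of 55 other repair genes were called in the nose, against 17.1% of all probe sets. Gtf2h1 and Ercc3, which encode subunits of the TFIIH helicase complex that opens the helix for excision, fell by 0.25 ± 0.05 and 0.25 ± 0.06 (adjusted p = 0.0138 and 0.0175), and both calls held in all 12 fits without 1 array. The Gtf2h1 call was lost with array quality weights (adjusted p = 0.0778) and with the replicate block (0.0547), while that of Ercc3 held under each of the 12 other settings (adjusted p up to 0.0409). The looser thresholds among these settings could lose no call. Fancc fell by 0.19 ± 0.05, Tdp1, which clears trapped topoisomerase from DNA ends, fell by 0.20 ± 0.06, and Rev3l, the catalytic subunit of a translesion polymerase, rose by 0.31 ± 0.09 (adjusted p = 0.0343, 0.0457 and 0.0343). Those 3 calls were lost in 8, 8 and 6 of 12 such fits, with adjusted p up to 0.0836, 0.119 and 0.0901. With array quality weights all 3 were lost as well (adjusted p = 0.136, 0.2 and 0.0931). Fancc was also lost with quantile normalization (0.0949) and the replicate block (0.0758), and Tdp1 with no filter (0.0586) and the block (0.0935). In the same nasal average 8 of 11 olfactory neuron markers and 3 of 7 ciliated cell markers were called higher, and 7 of 9 endothelial, 4 of 7 monocyte and macrophage, 3 of 8 T cell, 3 of 4 B and plasma cell, 2 of 4 NK cell, 2 of 4 neutrophil and 3 of 5 red cell markers lower. In blood 1 of 57 was called, against 7.01% of all probe sets. It was Rad18, which rose by 0.38 ± 0.07 (adjusted p = 0.0106) and stayed past the threshold in all 12 fits without 1 array and under the 12 other settings (adjusted p up to 0.0314), of which the looser thresholds could lose no call. In that average 6 of 7 NK cell and 1 of 4 platelet markers were called higher and 1 of 6 red cell markers lower. The part of these markers in either average was not tested.

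**Figure D4:**
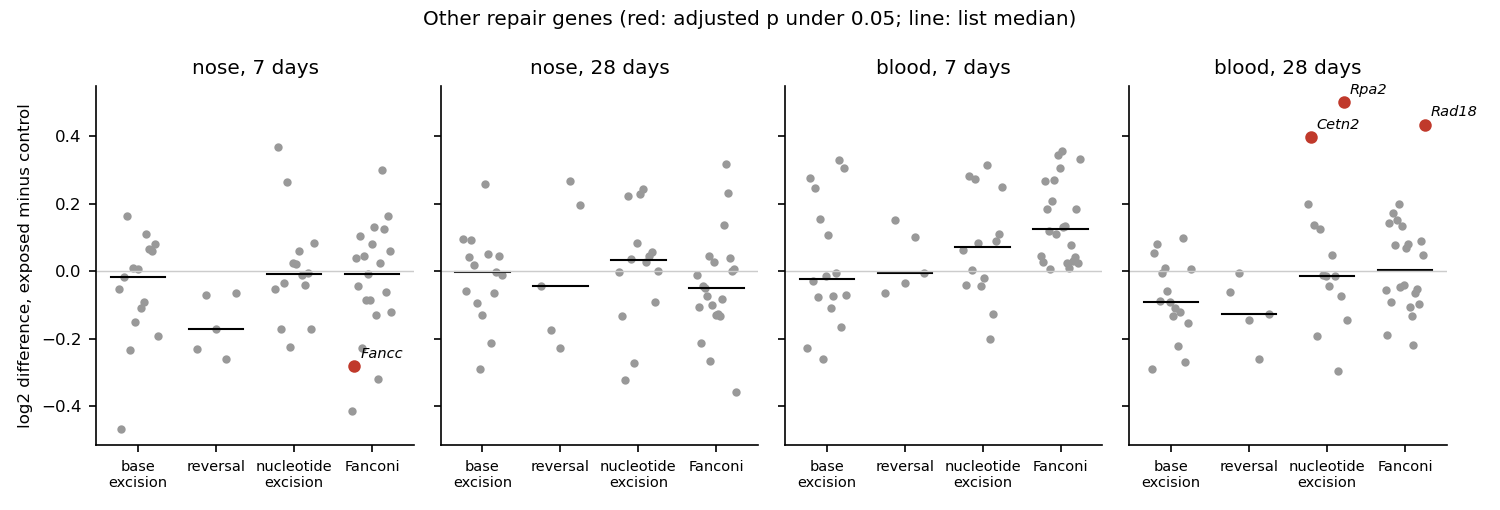
Difference in log2 intensity between exposed and control arrays (vertical axis) of the other repair genes tested, 1 point per gene, by pathway list (horizontal axis) in each tissue and day, with a line at the list median and red points where the adjusted p is under 0.05. The 4 red points are Fancc in the nose at 7 days (−0.28) and Cetn2, Rad18 and Rpa2 in blood at 28 days (0.40, 0.43 and 0.50).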

How the data were processed

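Nasal lining and white blood cells were profiled for messenger RNA, on 24 Affymetrix arrays in all, with 3 in each of 8 groups taken from the sample titles. The authors deposited 1 normalized, linear intensity per probe set and array. The submitters' processing notes name Partek with no version, and how background was corrected and arrays were normalized is not given in the sources used here. Each deposited intensity was converted to log2 and not normalized again. A probe set entered the tests of a tissue if its mean reached percentile 25 there, which 21910 did in each tissue and 20096 in both.

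Models were fitted in limma 3.58.1 under R 4.3.3 (lmFit, contrasts.fit, eBayes), with 4 group means over the 12 arrays of 1 tissue, or 8 group means over all 24 arrays for comparisons between tissues. Tests were two-sided, adjusted by the method of Benjamini and Hochberg, with a threshold of 0.05. The steps were tested on simulated data. Having 3 arrays in a group limits the precision. The platform's gene table named the probe sets. Promoters came from RefSeq for GRCr8, with a window for 8 of the 9 genes. Members, pathway lists and marker lists were chosen with earlier results of these data known.

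Named are all 9 genes, other listed repair genes past the threshold in an exposure comparison (at most 4 per list and comparison), Sprtn, Top2a, and the 3 named genes of most alike pattern for Fancd2, Xpc, Mgmt and Ogg1. Mki67 and Fanci, which the rule also named, are not listed in the gene table. Pairing was checked by the correlation, between same-numbered control and exposed arrays, of their deviations from the group means. It ran from −0.30 to 0.19 over 12 pairs. Only the 3 nasal pairs at 28 days were each above 0.1 (0.13, 0.13 and 0.19), and there no member was called with or without a replicate block. For nose and blood it ran from −0.18 to 0.11 over 12 pairs. The 12 alternatives, besides leaving out each array, were other filters, scalings, priors, weights, a block, other sets of arrays, the mean over probe sets of a gene and other thresholds. Those thresholds, an adjusted p under 0.1 and an unadjusted p under 0.05, are looser, so no call could be lost under them.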

Additional observations from a re-analysis of the deposited data

Results flagged for a closer look

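The effect of formaldehyde differed between nose and blood, by limma's test of the difference itself, for 5 values among the repair genes, members included. These were 2 of 61 tested at 7 days, against 10.8% of all probe sets, and 3 of 61 at 28 days, against 5.1%. For Ogg1 at 7 days the nasal effect minus the blood effect was −0.67 (adjusted p = 0.00678), from −0.04 in the nose and 0.63 in blood. For Ercc3 it was −0.45 at 7 days (adjusted p = 0.0288) and −0.46 at 28 days (adjusted p = 0.0422). For Rpa2 it was −0.59 at 28 days (adjusted p = 0.0348), with an array range of 7.79 to 7.81 in nasal controls and 7.63 to 7.79 in exposed noses. For Rad18 it was −0.79 at 28 days (adjusted p = 0.00677), where nasal controls read 7.91, 7.59 and 8.03 and exposed arrays 7.56, 7.53 and 7.37. Without 1 array the Ogg1 and Rad18 calls held in all 12 fits. The Ogg1 call also held under the 12 other settings (adjusted p up to 0.0281), of which the looser thresholds could lose no call. That of Rad18 was lost with array quality weights (adjusted p = 0.113) and when only the arrays compared were fitted (0.115). The Ercc3 call was lost in 6 of 12 fits at 7 days (adjusted p up to 0.0856) and in 8 of 12 at 28 days (up to 0.104), and the Rpa2 call in 7 of 12 (up to 0.0838). Other settings took the adjusted p of Ercc3 up to 0.0577 at 7 days and 0.258 at 28 days, and that of Rpa2 up to 0.402.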

How the results depend on the processing

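The number of called members changed with some settings. Counting unadjusted p under 0.05 gave 1 of 6 in the nose at 7 days, against 30.4% of all probe sets. It gave 2 each in the nose at 28 days, blood at 7 days and blood at 28 days, against 15.4%, 15.1% and 17.9%. The averages of both days had 2 in the nose and 3 in blood, against 6891 and 4608 of 21910 probe sets. The differences between days had 1 and 2 in nose and blood, against 2977 and 2528 of 21910. Nasal minus blood effects had 2 and 3 at 7 and 28 days, against 5414 and 4269 of 20096. For the other counts in this paragraph the shares over all probe sets are not given, and those counts describe the 6 genes only. An adjusted p under 0.1 gave 2 for the nasal average and 1 for nasal minus blood effects at 28 days. Array quality weights, whose estimation stopped before convergence in the nose and across tissues, gave 2 in the nose and 2 in blood at 7 days and 1 for unexposed tissues at 28 days. Fitting only the arrays compared gave 1 in the nose at 7 days and 1 for unexposed tissues at 28 days. Fitting all 24 arrays gave 2 for the nasal average and 1 for the difference between days in blood. Quantile normalization gave 1 for the nasal average and 1 for nasal minus blood effects at 28 days. Between unexposed tissues at 28 days it changed which members were called. Mgmt and Xpa lost the call (adjusted p = 0.0695 and 0.0854). Xpc (0.23, adjusted p = 0.0224) and Fancd2 (0.35, adjusted p = 0.025) gained one, as higher in the nose. Median centring gave 1 for the nasal average, 0 for the blood average, and 6 and 5 for unexposed tissues at 7 and 28 days. No filter, the stricter filter, the prior with trend and robust and the mean over probe sets changed no count of members past the threshold by more than 1.5 times. The stricter filter, at the median of the tissue, left Fancd2 untested in both tissues and Mgmt untested in the nose. Fancd2 lay at percentiles 32.1 and 41.9 in nose and blood, and nasal Mgmt at 46.4. The calls of Fancd2 at 7 days and Mgmt at 28 days between unexposed tissues could therefore not be repeated under it.

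With the replicate number as a block, 0 members were called in blood at 7 days, where 2 probe sets in all were (Ogg1 0.63, adjusted p = 0.114), 0 for the blood average (adjusted p of Ogg1 = 0.0568) and 1 for unexposed tissues at 28 days. The numbers are not known to pair these arrays. In the nose at 28 days, where the correlations exceed 0.1, the block changed no call of a member. Without the block 0 members and 1 of 21910 probe sets were called there, so this cannot show whether pairing matters.

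Without 1 array the count ran from 0 to 1 in the nose at 28 days, blood at 7 days, the blood average and the nasal difference between days. Over all probe sets the same fits called 0 to 1081, 2 to 115, 649 to 1879 and 1 to 2648. The count ran from 0 to 2 for the nasal average and nasal minus blood effects at 28 days, and from 1 to 3 for unexposed tissues at 28 days. There the fits called 1968 to 5530, 518 to 2567 and 13445 to 14438 of all probe sets. For nasal minus blood effects the fit with 2 members was the one with 2567.

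Signs turned for values near 0 and for unexposed tissues. Array weights gave 0.045 for Fancd2 in the nose at 7 days, 0.0085 for Mgmt in the nose at 28 days, 0.030 for Ogg1 and 0.042 for Xpa in blood at 28 days, 0.0057 for Mgmt between days in blood, and −0.027 for Ogg1 between unexposed tissues at 28 days. Quantile normalization gave 0.012 for Ogg1 in blood at 28 days. For Mgmt between days in blood and for nasal minus blood effects of Xpa and Xpc at 7 days it gave 0.049, 0.019 and 0.030, and median centring gave 0.0024, 0.025 and 0.021. Between unexposed tissues centring gave −0.68, −0.63, −0.64, −0.23 and −0.38 for Ogg1, Mgmt, Xpa, Xpc and Fancd2 at 7 days, and −0.51, −0.42 and −0.25 for Ogg1, Xpc and Fancd2 at 28 days.

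Of the other repair genes called in blood at 28 days, Rad18, Cetn2 and Rpa2 each lost the call with array quality weights (adjusted p = 0.0636, 0.0866 and 0.17), with the replicate block (0.065, 0.103 and 0.171) and when only the arrays compared were fitted (0.167, 0.157 and 0.177). Cetn2 also lost it when all 24 arrays were fitted (0.0998). Rpa2 also lost it with no filter (0.0636), quantile normalization (0.0715) and the prior with trend and robust (0.0505).

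Leaving out 1 array also turned signs, with ranges of −0.017 to 0.034 for Ercc1 and −0.16 to 0.024 for Fancd2 in the nose at 7 days, −0.086 to 0.049 for Mgmt in the nose at 28 days, and −0.12 to 0.049 for Ogg1 and −0.15 to 0.080 for Xpa in blood at 28 days. For averages over days it was −0.027 to 0.067 for nasal Xpc and −0.040 to 0.016 for blood Ercc1. Between days it was −0.21 to 0.061 for nasal Xpa, −0.20 to 0.022 for nasal Fancd2 and −0.12 to 0.064 for blood Mgmt. For nasal minus blood effects at 7 days it was −0.076 to 0.059 for Xpa and −0.095 to 0.069 for Xpc, and for unexposed tissues at 28 days −0.082 to 0.14 for Ogg1. The cause of these changes was not tested.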
